A study of Mus musculus with 6 samples.

Results

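The antioxidant response of mouse mammary epithelium was read here from 10 genes, Nfe2l2, Keap1, Nqo1, Hmox1, Gclc, Gclm, Gsr, Txnrd1, Srxn1 and Gpx2. They were named as a list of oxidative stress and glutathione genes, and their probes were found by the transcript accession that each non-control probe carries, since the scanner files used here hold no gene name column. All 10 genes were found, on 12 of the 55681 probes and among the 20660 genes matched. Hmox1 and Gsr had 2 probes each and the other genes had 1.

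The samples were mammary cells of female C57Bl6J mice, sorted by flow cytometry and used without culture. The fetal group came from embryonic day 18.5 (E18.5) rudiments and was sorted for cells negative for the endothelial marker CD31 and the blood markers CD45 and Ter119, high for EpCAM (EpCAM++) and positive for CD49f. The adult basal group came from animals of 8 to 12 weeks and was sorted with the same exclusions and also as negative for the stromal marker BP-1, with EpCAM+ and CD49f+ cells kept. Each group had 3 biological replicates, each on its own 1-colour Agilent array, and the number of animals behind a replicate was not given in the sources used here. No agent was applied to either group, but the adult glands were dissociated overnight and the fetal glands for a much shorter time in the same enzymes at the same temperature, so that age, cell type and time in the enzymes cannot be told apart.

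As background, the transcription factor NRF2, the product of Nfe2l2, is held by the adaptor protein KEAP1, which passes it to a ubiquitin ligase for degradation. Oxidants and electrophiles modify cysteines of KEAP1, NRF2 then accumulates, pairs with small MAF proteins and binds antioxidant response elements near genes that make glutathione, reduce oxidised thiols and break down quinones and haem. Glutathione and thioredoxin are the main thiol buffers of the cell.

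The antioxidant response element was looked for as TGACNNNGC, and a variant as TGAGNNNGC, on both strands of the 250 bases before and 50 after each start site in RefSeq (GRCm38.p6). Promoter entries were found for 7 of the 10 genes (9 promoters, of which Txnrd1 had 3). Either spelling occurred in 4 of the 9 promoters, 44.4%, against 27.8% of all 32851 promoters of the same length. TGACNNNGC alone was in 12.4% and TGAGNNNGC alone in 17.6% of all promoters. The stretches that hold these letters before the start site are shown because the transcripts of all 4 genes were higher in adult basal cells. They lie at chr2:75704885-75704913 (Nfe2l2, minus strand), chr3:122245413-122245441 (Gclm, plus strand), chr10:82859104-82859132 (Txnrd1, plus strand, 1 of its 3 starts), and chr2:152105356-152105384 and chr2:152105469-152105497 (Srxn1, plus strand). Each is written 5′ to 3′ along the gene with the matched letters in capitals, which read as the reverse complement of the motif in Gclm, Txnrd1 and the first Srxn1 stretch.
Nfe2l2, -240 to -232 from the start: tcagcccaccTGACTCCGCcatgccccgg
Gclm, -134 to -126: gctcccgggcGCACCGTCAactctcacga
Txnrd1, -92 to -84: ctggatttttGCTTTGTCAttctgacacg
Srxn1, -158 to -150: tctactgagaGCCGACTCAtcctctctgg
Srxn1, -45 to -37: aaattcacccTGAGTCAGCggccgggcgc

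The last of these also holds the AP-1 letters TGANTCA, which overlap the element and were present in 7.81% of all promoters. No such letters were in the windows of Nqo1, Keap1 and Gpx2, which says only that these windows lack them, and the promoters of Hmox1, Gclc and Gsr were not analysed here. The Srxn1 window also held TGANTCA at -102 to -96 and, after the start site, TGACNNNGC at 29 to 37 on the other strand. A match of letters is a description and not a binding site.

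The 6 arrays were usable for all of these genes. On each array 76.4% to 83.3% of probes exceeded background clearly by the scanner's own flag (called well above background here), no spot was saturated, and all 12 probes carried that flag on all 6 arrays. Over the tested probes, the fetal arrays correlated at 0.994 to 0.995 with each other and the adult basal arrays at 0.981 to 0.990, against 0.832 to 0.853 between the groups. Adult basal replicate 2 had the most outlier spots, 326 against 104 to 184 on the others. The arrays lay on 2 slides, slide 1 with fetal replicate 1 and adult basal replicates 1 and 3, and slide 2 with the remaining 3. Of 7 basal markers, Krt5, Acta2, Myh11, Mylk and Oxtr were called higher in adult basal cells by the rules given below, Krt14 stood at -1.20 without a call (-1.85 and called by Benjamini-Hochberg without adult basal replicate 2, and called by that rule with the replicate number as a block), and the probes of Trp63 disagreed (-0.08 and -3.06). Krt14 and Trp63 were named after their values were seen. The Holm call of Krt5 was lost without fetal replicate 1 or adult basal replicate 1. Of 7 luminal markers, of which Krt18 was the brightest, the luminal transcription factors Elf5 and Foxa1 and the receptor Kit were called higher in fetal cells, and Krt19, a luminal keratin, was called higher in adult basal cells by Benjamini-Hochberg only (-1.22, limma, adjusted p = 0.00041). The Holm call of Foxa1 was lost without any 1 fetal array or adult basal replicate 3. By Holm 71.4% of the basal list were called higher in adult basal cells, against 5.20% of all genes. Of the luminal list 42.9% were called higher in fetal cells by Holm, against 6.02% of all genes. By Benjamini-Hochberg 14.3% of the luminal list were called higher in adult basal cells, against 13.9% of all genes. Of the sort antigens, Itga6 (CD49f) differed by 0.01 on the log2 scale, Epcam was higher in fetal cells by 1.88 (limma, Holm-adjusted p = 0.026, a call lost without any 1 array other than adult basal replicate 1), and no array gave Enpep (BP-1) a signal well above background.

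Of the 10 genes, 5 were called higher in adult basal cells by the stricter rule, which asks for a change of 2-fold or more and a p of 0.05 or less after Holm adjustment. They were Nfe2l2, Hmox1, Gclc, Gclm and Gpx2. No gene was called higher in fetal cells, where limma gave 1 gene an unadjusted p below 0.05. Over all 15725 genes tested, each by its brightest (main) probe, the same rule called 5.20% higher in adult basal cells and 6.02% higher in fetal cells, and over all 20448 probes 11.1% in either direction. Under the Benjamini-Hochberg adjustment with the same fold limit, 7 of the 10 were higher in adult basal cells, with Srxn1 and Txnrd1 added, against 13.9% of all genes. Gsr alone was higher in fetal cells, against 15.8% of all genes, and this rule called 30.0% of all probes. The groups did not overlap for 8 genes that were higher in adult basal cells and for Gsr, which was higher in fetal cells, against 35.0% and 33.4% of all genes. The median log2 difference, fetal minus adult basal, was -1.85 over the 10 genes and -0.04 over all genes tested. Differences below are on this scale, so that a negative value means a higher signal in adult basal cells, and the errors are standard errors of the limma fit.

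**Figure D1:**
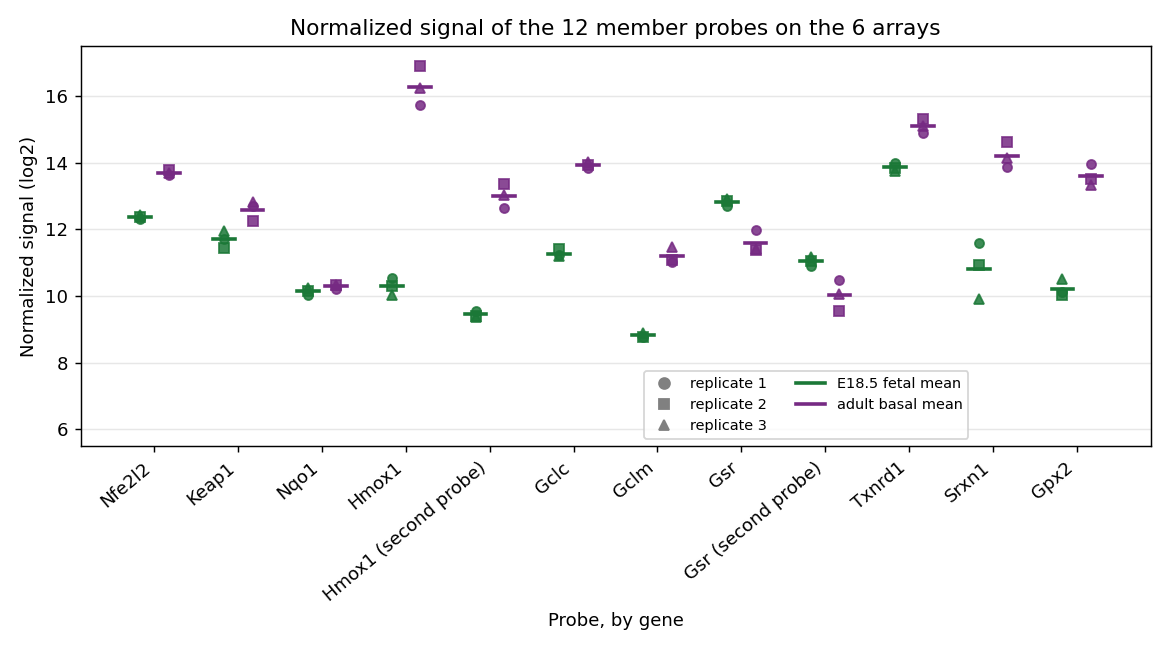
Normalized signal (log2, vertical axis) of each of the 12 probes on the 6 arrays, with 1 point per array and a bar at each group mean; green is E18.5 fetal and purple adult basal. The groups lie apart by 5.18 log2 units for the main Hmox1 probe, overlap for Nqo1, and are in the opposite order for Gsr.

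Nfe2l2, which encodes NRF2, gave normalized log2 signals of 12.32, 12.38 and 12.44 in fetal cells and of 13.62, 13.79 and 13.69 in adult basal cells. All adult arrays were above all fetal arrays, and both groups were tight. The signal was 2.50-fold higher in adult basal cells (log2 difference -1.32 ± 0.10, limma, Holm-adjusted p = 0.0446). Keap1, the adaptor that holds NRF2, read 11.71, 11.44 and 11.94 in fetal cells and 12.70, 12.24 and 12.82 in adult basal cells. The groups again did not overlap, but the gap between them was 0.30 log2 units and the spread within each was of the same size (SD 0.25 and 0.30, n = 3 each). Its difference of -0.89 ± 0.19 had a 95% interval of -1.34 to -0.44 (limma, Holm-adjusted p = 1, Benjamini-Hochberg-adjusted p = 0.0051) and stayed under the 2-fold limit. Without fetal replicate 3 it was -1.01, and without adult basal replicate 2 it was -1.06, both past that limit.

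Hmox1 encodes the inducible haem oxygenase, which opens haem to biliverdin, iron and carbon monoxide, and had the largest difference of the 10 genes. Its main probe read 10.54, 10.31 and 10.03 in fetal cells and 15.72, 16.89 and 16.23 in adult basal cells. Every adult array was at least 5.18 log2 units above every fetal array. The difference was 63.5-fold (95% interval 39.6-fold to 102-fold, log2 difference -5.99 ± 0.29, limma, Holm-adjusted p = 0.00228). The other Hmox1 probe read 9.56, 9.41 and 9.37 against 12.63, 13.35 and 13.02, an 11.7-fold difference (log2 difference -3.55 ± 0.18, limma, Holm-adjusted p = 0.00351). Both probes put the adult arrays in the same order but differed in the size of the change, and with the mean of both the difference was -4.77.

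Nqo1, the quinone reductase that is often taken as the reference target of NRF2, did not pass the test. Its probe read 10.04, 10.15 and 10.24 in fetal cells and 10.22, 10.35 and 10.33 in adult basal cells, and the highest fetal array was above the lowest adult array. The difference was -0.16 ± 0.10, with a 95% interval of -0.40 to 0.08 (limma, Benjamini-Hochberg-adjusted p = 0.22), so that a difference of 2-fold in either direction lies outside the interval.

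Transcripts of the ligase that starts glutathione synthesis were called higher in adult basal cells by both rules. The transcript of glutathione reductase was called higher in fetal cells by Benjamini-Hochberg only. Gclc and Gclm encode the catalytic and the modifier subunit of glutamate-cysteine ligase, the rate-limiting enzyme of glutathione synthesis. Gclc read 11.23, 11.41 and 11.19 in fetal cells and 13.84, 13.92 and 14.02 in adult basal cells. It was 6.28-fold higher in adult basal cells (95% interval 5.26-fold to 7.50-fold, limma, Holm-adjusted p = 0.000716). Gclm read 8.79, 8.77 and 8.89 against 11.03, 11.07 and 11.46, a 5.17-fold difference (95% interval 4.12-fold to 6.48-fold, limma, Holm-adjusted p = 0.0086). The intervals of both subunits overlap, and each subunit was separated by more than 2 log2 units between the groups.

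Gsr encodes glutathione reductase, which returns oxidised glutathione to its reduced form with NADPH. Its main probe read 12.70, 12.84 and 12.90 in fetal cells and 12.00, 11.38 and 11.42 in adult basal cells. This was the opposite order to the rest, with every fetal array above every adult array, and the fetal signal was 2.33-fold higher (log2 difference 1.22 ± 0.18, limma, Holm-adjusted p = 1, Benjamini-Hochberg-adjusted p = 0.00072). The other Gsr probe read 10.91, 11.06 and 11.18 against 10.49, 9.55 and 10.05, with a difference of 1.02 ± 0.23 (limma, Benjamini-Hochberg-adjusted p = 0.0063).

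Txnrd1 encodes the cytosolic thioredoxin reductase and read 13.99, 13.85 and 13.75 in fetal cells and 14.89, 15.31 and 15.11 in adult basal cells. The adult signal was 2.36-fold higher (95% interval 1.89-fold to 2.95-fold), a difference that passed with Benjamini-Hochberg (limma, adjusted p = 0.00017) and not with Holm (limma, adjusted p = 0.574). Srxn1 encodes sulfiredoxin, which repairs over-oxidised peroxiredoxins. It read 11.58, 10.93 and 9.92 in fetal cells and 13.88, 14.61 and 14.15 in adult basal cells. Its fetal arrays were the most spread of the 10 genes (SD 0.84, against a median of 0.12 for the 10 and for all genes tested), yet stayed at least 2.29 log2 units below the adult arrays. The adult signal was 10.6-fold higher (95% interval 5.45-fold to 20.5-fold, limma, Holm-adjusted p = 0.908, Benjamini-Hochberg-adjusted p = 0.00024). Gpx2, a glutathione peroxidase best known from gut epithelium, read 10.12, 10.04 and 10.52 against 13.97, 13.51 and 13.33. It was 10.4-fold higher in adult basal cells (95% interval 7.51-fold to 14.5-fold, limma, Holm-adjusted p = 0.00951).

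**Figure D2:**
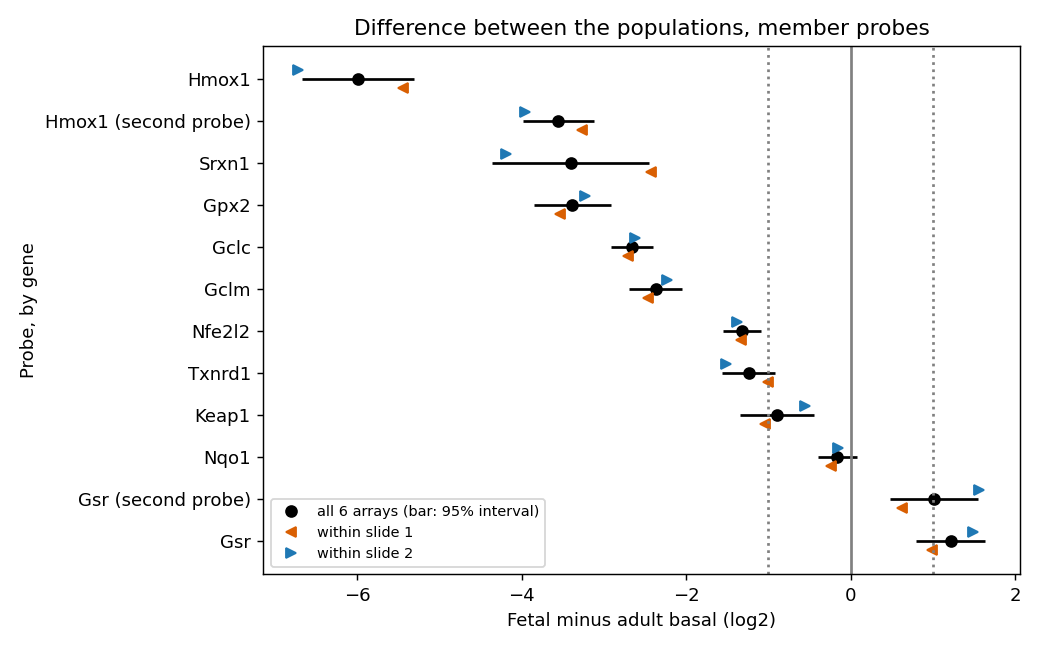
Difference between the groups (log2, fetal minus adult basal, horizontal axis) for each probe. Black points are the values over all 6 arrays with their 95% intervals, triangles the differences within each slide, and dotted lines mark 2-fold. Hmox1 lies farthest to the left at -5.99 and Gsr is the gene to the right of 0, on both slides.

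Within each slide the direction was the same as in the whole for all 12 probes. Hmox1 differed by -5.44 within slide 1 and by -6.72 within slide 2, Gclc by -2.70 and -2.62, Gclm by -2.46 and -2.24, and Gpx2 by -3.54 and -3.23. The spread between slides was widest for Srxn1, at -2.43 and -4.18, and Gsr was at 0.99 and 1.49. When slide was added to the fit as a block, Hmox1 (limma, Holm-adjusted p = 0.0102) and Gclc (limma, Holm-adjusted p = 0.00662) were called, whereas Nfe2l2, Gclm and Gpx2 were not (limma, Holm-adjusted p = 0.159, 0.0573 and 0.0591). The Benjamini-Hochberg rule called the same 8 genes with the block. Among the adult arrays, replicate 1 was lowest for 7 of the 10 genes and replicate 2 highest for 5. Among the fetal arrays, replicate 3 was highest for 6 and no replicate was lowest for more than 4.

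The Holm calls of Hmox1 and Gclc held with each array left out in turn (highest limma Holm-adjusted p = 0.0418 and 0.0217). That of Nfe2l2 was lost whichever array was left out (limma, Holm-adjusted p = 0.138 to 0.677). That of Gclm was lost without fetal replicate 1, 2 or 3 or adult basal replicate 1 (limma, Holm-adjusted p = 0.171, 0.152, 0.109 and 0.055), and that of Gpx2 without fetal replicate 1 or 2 (limma, Holm-adjusted p = 0.176 and 0.122). With each array left out, the 8 genes of the Benjamini-Hochberg rule were called every time.

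The rest of the pathway was read from 104 further genes in 8 lists, of which 101 had a probe and 96 were tested. By the Holm rule 16 of the 96 (16.7%) were higher in adult basal cells, against 5.20% of all genes, and 6 (6.25%) in fetal cells, against 6.02%. By Benjamini-Hochberg 32 (33.3%) were higher in adult basal cells, against 13.9% of all genes, and 17 (17.7%) in fetal cells, against 15.8%. The counts differed between the lists. Of the 16 other targets of NRF2, 7 (43.8%) were called higher in adult basal cells by Holm, against 5.20% of all genes, and 12 by Benjamini-Hochberg, against 13.9%. Their median log2 difference was -1.72, against -0.04 over all genes. No target was called higher in fetal cells, by Holm or by Benjamini-Hochberg, and limma gave 1 an unadjusted p below 0.05 there.

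**Figure D3:**
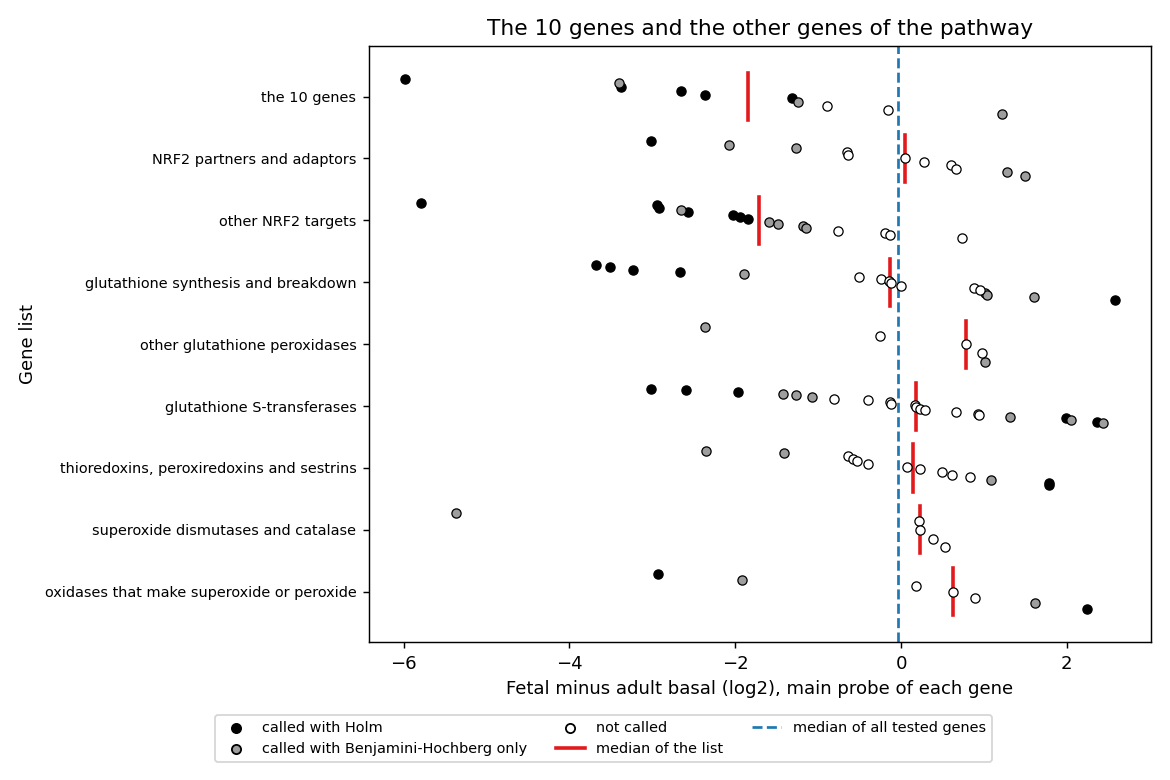
Log2 difference (fetal minus adult basal, horizontal axis) of the main probe of each tested gene, by list (vertical axis). Black points were called with Holm, grey points with Benjamini-Hochberg only and open points by neither; red bars are list medians and the dashed line the median of all genes tested. The 10 genes and the other NRF2 targets have medians of -1.85 and -1.72, and the other lists have medians between -0.14 and 0.78.

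Slc7a11 and Slc3a2 encode the light and the heavy chain of the cystine-glutamate exchanger that feeds cysteine to glutathione synthesis. Slc7a11 read 3.42, 3.17 and 2.98 in fetal cells, where 1 of 3 arrays was well above background, and 8.67, 9.01 and 9.27 in adult basal cells (log2 difference -5.79, limma, Holm-adjusted p = 0.000118). The fetal signal was at the edge of detection, and with an offset of 16 before the log the difference was -4.37 and with normexp background correction -3.11. Slc3a2, which also serves other amino acid carriers, read 14.29, 14.01 and 14.24 against 17.33, 17.48 and 17.45 (log2 difference -3.24, limma, Holm-adjusted p = 0.000271). Cth, the cystathionine lyase that makes cysteine, was higher in adult basal cells by both of its probes (-2.66 and -2.72).

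Of the remaining NRF2 targets the rule named Abcc1, an exporter of glutathione conjugates, at -2.91, Osgin1 at -2.57 and the aldehyde oxidase Aox1 at -2.03, all called higher in adult basal cells. Ephx1, the microsomal epoxide hydrolase, was at -2.94 by its main probe and at -0.19 by its other probe, so that its change rests on 1 probe. Me1, the cytosolic malic enzyme that supplies NADPH, was at -1.94 and the ferritin heavy chain Fth1 at -1.84 (both named after their values were seen, and called by Holm), and probes of ferritin genes may read transcripts of near-identical copies. The pentose phosphate genes in this list had differences of both signs, and only Pgd was called. Pgd was called by Benjamini-Hochberg at -1.15, G6pdx stood at -0.76 and Taldo1 at -0.19, and Tkt, the transketolase, stood at 0.73 with fetal arrays of 14.68, 14.68 and 14.68 against 13.96, 13.95 and 13.93 (all 4 named after their values were seen).

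Among the 11 partners of NRF2 the single Holm call (9.09%, against 5.20% of all genes) was Sqstm1, the autophagy receptor p62 that binds KEAP1. It read 11.06, 11.02 and 10.89 in fetal cells and 13.75, 14.09 and 14.16 in adult basal cells, 8.08-fold higher (limma, Holm-adjusted p = 0.00129). The small MAF partner Mafg, named after its values were seen, was higher in adult basal cells by all 3 of its probes (-1.26, -1.48 and -1.44), called with Benjamini-Hochberg and not with Holm. The ligase subunit Cul3 differed by 0.05 with a 95% interval of -0.22 to 0.32. Bach1, a repressor that competes for the same elements and is known for silencing Hmox1, read 11.79, 11.56 and 11.16 against 11.14, 11.27 and 11.26, and its groups overlapped (0.28, 95% interval -0.11 to 0.67). Bach2, also in this list, was called by Benjamini-Hochberg as higher in fetal cells (1.27) and stood at 0.89 by its other probe. The other small MAF genes, Maff (-0.65) and Mafk (-0.64), stayed under 2-fold. Nfe2l1 stood at -2.07 and was called by Benjamini-Hochberg and not by Holm. Cul3, Bach1, Bach2, Maff, Mafk and Nfe2l1 were named after their values were seen. Of the 11 genes in this list, 3 (27.3%) were called by Benjamini-Hochberg as higher in adult basal cells, against 13.9% of all genes, and 2 (18.2%) as higher in fetal cells, against 15.8%.

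Genes that build and break down glutathione went in both directions, with 5 of 16 (31.2%) higher in adult basal cells by Benjamini-Hochberg, against 13.9% of all genes, and 4 (25.0%) in fetal cells, against 15.8%. By Holm 4 (25%) were higher in adult basal cells, against 5.20% of all genes, and 1 (6.25%) in fetal cells, against 6.02%. Ggt1, the surface gamma-glutamyl transferase that opens extracellular glutathione, read 5.19, 5.51 and 5.12 in fetal cells and 8.62, 9.10 and 9.13 in adult basal cells, 12.8-fold higher (limma, Holm-adjusted p = 0.00221). Its log2 difference was -3.67, and -2.42 with normexp. Chac1, which degrades glutathione inside the cell, was 11.4-fold higher in adult basal cells (limma, Holm-adjusted p = 0.00111). Ggct, the cyclotransferase that acts on gamma-glutamyl peptides, went the other way and read 10.28, 10.44 and 10.60 against 8.08, 7.88 and 7.62 (log2 difference 2.58, limma, Holm-adjusted p = 0.00796). Gss, the second enzyme of glutathione synthesis, was named after its values were seen because it stood apart from Gclc and Gclm. It read 9.37, 9.34 and 9.55 against 9.44, 9.28 and 9.52, a difference of 0.01 with a 95% interval of -0.26 to 0.27.

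The glutathione S-transferases, which conjugate glutathione to electrophiles, had calls in both directions as well. By Holm 3 of 22 (13.6%) were higher in adult basal cells, against 5.20% of all genes, and 2 (9.09%) in fetal cells, against 6.02%. By Benjamini-Hochberg 6 (27.3%) were higher in adult basal cells, against 13.9%, and 5 (22.7%) in fetal cells, against 15.8%. Gsta2 (-3.01, and -1.80 with normexp), Gstm1 (-2.59) and Gsto1 (-1.96) were called by Holm as higher in adult basal cells, and Gstt3 (2.36) and Gstm2 (1.99) as higher in fetal cells. Gstm1 and Gstm2 lie in 1 family of near-identical genes whose probes may read each other's transcripts, yet 2 probes of Gstm1 and 3 of Gstm2 each gave the same direction. In the list of thioredoxins, peroxiredoxins and sestrins no gene was called by Holm as higher in adult basal cells (6 of 14 at an unadjusted limma p below 0.05), and Sesn3 and Prdx2, both at 1.79, were called as higher in fetal cells (14.3%, against 6.02% of all genes). By Benjamini-Hochberg 2 (14.3%) were higher in adult basal cells, against 13.9% of all genes, and 3 (21.4%) in fetal cells, against 15.8%. Prdx2 is a cytosolic peroxiredoxin and Sesn3 a sestrin. The median difference of this list was 0.15.

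Of the 5 other glutathione peroxidases tested none was called by Holm, and 4 had an unadjusted limma p below 0.05. By Benjamini-Hochberg 1 (20%) was higher in adult basal cells, against 13.9% of all genes, and 1 (20%) in fetal cells, against 15.8%. Gpx3, the secreted enzyme, was at -2.37 with adult arrays of 9.38, 8.84 and 10.60 (limma, Benjamini-Hochberg-adjusted p = 0.0015), and Gpx1, the cytosolic enzyme, was at 1.01 (limma, Benjamini-Hochberg-adjusted p = 0.0032), so that Gpx1 and Gpx2 were called in opposite directions. The call of Gpx1 was at the 2-fold limit and ended with normexp background correction (0.98) and without fetal replicate 3 (0.95) or adult basal replicate 2 (0.86) or 3 (0.93). Of the 5 genes of the dismutase and catalase list none was called by Holm and 3 had an unadjusted limma p below 0.05, and Cat (0.53) and Sod1 (0.38) stayed under 2-fold. Sod3, the extracellular dismutase, was named after its values were seen. It was the only Benjamini-Hochberg call of this list (20%, against 13.9% of all genes called higher in adult basal cells). None of the fetal arrays gave it a signal well above background, and it read 8.57, 7.70 and 9.05 in adult basal cells. Its fitted log2 difference was -5.37 (limma, Benjamini-Hochberg-adjusted p = 5.8e-05). A bound taken outside the fit put it at least 23.9-fold higher in adult basal cells. That bound sets the adult mean against the higher of the probe's own signal and the lowest signal well above background on each fetal array, in the normalization used throughout. The fitted difference of Sod3 was -2.53 with normexp and -3.86 with an offset of 16, both smaller than that bound. Among the oxidases, Nox4 was higher in adult basal cells by its main probe (-2.93, limma, Holm-adjusted p = 0.0015) and stood at -0.68 by its other probe, and Noxo1, an organizer of the NOX1 oxidase, was higher in fetal cells (2.24, limma, Holm-adjusted p = 0.0469). Each was 1 of 7 genes tested (14.3%, against 5.20% and 6.02% of all genes).

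Of the Holm calls named in the pathway lists, those of Slc7a11, Slc3a2, Abcc1, Sqstm1, Chac1, Gstm1 and Nox4 held with each array left out in turn. Those of Ggt1 and Osgin1 were lost without 1 array, fetal replicate 1 and fetal replicate 2 (limma, Holm-adjusted p = 0.0532 and 0.0531). Those of Ggct and Gsto1 were lost without any 1 of the 3 fetal arrays (limma, highest Holm-adjusted p = 0.135 and 0.127), as was that of Sesn3, also without adult basal replicate 3 (0.11). Those of Aox1 and Gsta2 were lost without fetal replicate 1 or 3 or adult basal replicate 1 (0.0913 and 0.0613), and that of Cth without any 1 fetal array or adult basal replicate 1 (0.328). Those of Ephx1, Me1, Gstt3 and Noxo1 were lost without any 1 array other than adult basal replicate 1 (0.294, 0.211, 0.176 and 0.649). Fth1 lost its call without any 1 array other than adult basal replicate 2 (0.5), as did Gstm2 (0.169), and Prdx2 lost its call whichever array was left out (0.514). All of these genes kept their direction and their Benjamini-Hochberg call throughout.

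The sort removed blood and endothelial cells, and their markers were read beside these results. The counts of calls in these lists stand against 13.9% of all genes called higher in adult basal cells and 15.8% in fetal cells by Benjamini-Hochberg. In bulk RNA, fewer cells of a type and less RNA per cell cannot be told apart. Of the leukocyte and macrophage list 6 of 7 genes were measured and 3 were called by Benjamini-Hochberg as higher in adult basal cells, Cd52 (-4.39), Cd74 (-2.79) and Lyz2 (-1.76). Cd52, well above background on 2 of 3 fetal arrays, was at -2.44 with normexp, -3.45 with an offset of 16 and -3.70 without adult basal replicate 3, and Lyz2 was at -1.08 without that array. Ptprc, which encodes the CD45 used in the sort, stood at -0.31 and the brightest gene of the list, Csf1r, at -0.06. The call of Lyz2 ended without fetal replicate 1, 2 or 3 and without the low-signal filter, and Lyz2 had no value with normexp or with an offset of 16. The macrophage receptor gene Adgre1 stood at -0.42 by its main probe, while its other probe was at least 9.8-fold higher in adult basal cells (at least 5.72-fold without adult basal replicate 3) and exceeded background clearly on none of the fetal arrays. Ptprc and Adgre1 were named after their values were seen. The summed signal of the list was 11491, 8707 and 9768 in fetal cells and 10499, 11788 and 14204 in adult basal cells, which overlap. The Csf1r probe gave most of that summed signal, which is not a share of RNA. Without it the other 5 genes summed to 619, 685 and 655 against 2084, 1749 and 3522, higher on every adult array. The summed signal of the 10 genes was 40971, 38803 and 38411 against 156768, 239308 and 184456. Hmox1 was the brightest of the 10 on every adult array (log2 signals of 15.72, 16.89 and 16.23), and no sum without it was made. The fibroblast list had 3 of 7 genes called as higher in adult basal cells by Benjamini-Hochberg (Pdgfrb, Dcn and Lum) and summed to 5460, 5740 and 7056 against 16064, 18540 and 26641, with Col1a2 as its brightest gene at -0.90. Of these, Pdgfrb (-4.34, and -2.93 with normexp; limma, Holm-adjusted p = 0.000559) and Dcn (-3.78, limma, Holm-adjusted p = 0.00231) were called by Holm, 28.6% of the list against 5.20% of all genes, and Dcn not without fetal replicate 1 (limma, Holm-adjusted p = 0.0527). Col1a2 was called by Benjamini-Hochberg without fetal replicate 3 or adult basal replicate 1 or 2. The call of Lum ended with normexp, with an offset of 16 and without fetal replicate 1 or adult basal replicate 2 or 3. The endothelial sums were 12220, 10743 and 12492 against 12666, 13635 and 11050, with 2 of 4 genes tested, Cdh5 and Emcn, called by Benjamini-Hochberg as higher in adult basal cells. Kdr was the brightest of that list at -0.04, and without it the other 4 genes summed to 598, 584 and 662 against 811, 918 and 921, again higher on every adult array. The sums without the brightest gene were added after the data were seen. Of the erythroid genes measured, Hba-a1 was the brightest at 0.47, and Hbb-bt was at least 20.4-fold higher in fetal cells, in which it read 6.33, 9.28 and 9.29. Without fetal replicate 1 the bound was 40.4-fold, and Hbb-bt was then called by Holm (limma, Holm-adjusted p = 0.000711). Its fitted difference was 2.43 with normexp and 3.64 with an offset of 16, both smaller than the bound over all arrays. The erythroid sums over 5 genes were 792, 1935 and 1705 against 713, 1090 and 713. Of the epidermal list 3 of 4 genes tested were called by Benjamini-Hochberg as higher in fetal cells, Krt10, which was the brightest (1.47), Krt1 (1.95) and Krtdap (4.11, with 2 of 3 adult arrays well above background, 2.84 with an offset of 16, and 4.95 and 3.16 without adult basal replicate 2 and 3), and the sums were 2323, 1891 and 1879 against 729, 784 and 741. By Holm only Krt10 was called in the epidermal list (limma, Holm-adjusted p = 0.0221), 25% of it against 6.02% of all genes. That call was lost whichever array was left out (limma, Holm-adjusted p = 0.0866 to 0.276), and the other Krt10 probe stood at 0.98. The part of the cell types of these lists in the differences of the 10 genes was not tested.

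**Figure D4:**
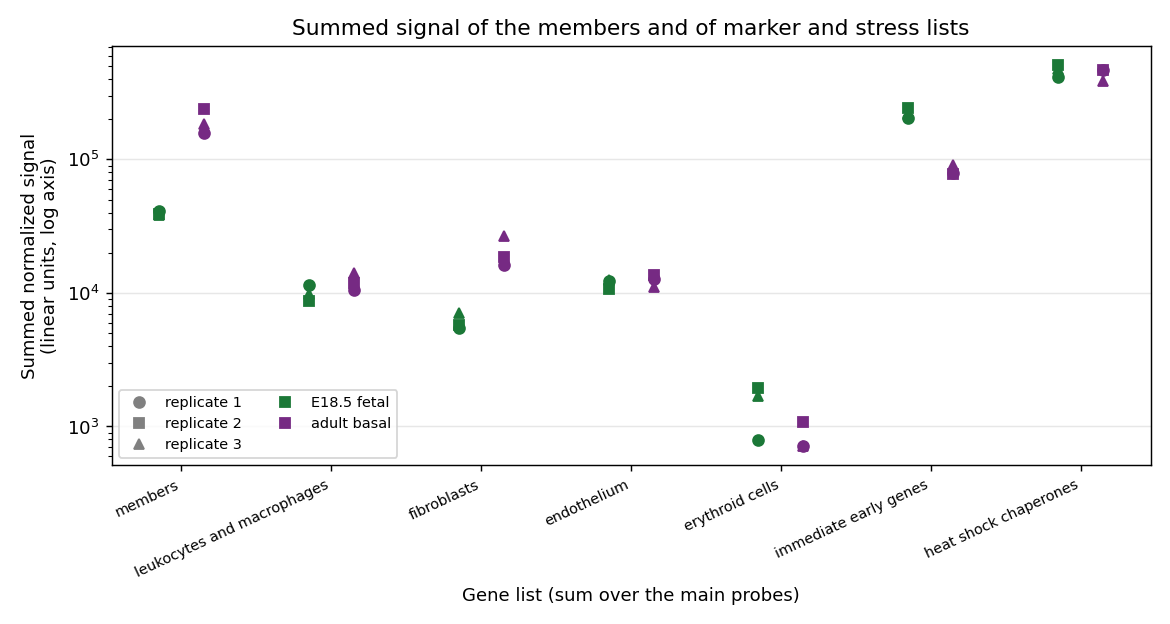
Summed normalized signal (linear units on a log axis, vertical) of the main probes of each list (horizontal) on every array, with 1 point per array, green fetal and purple adult basal. The 10 genes and the fibroblast list sum higher in all 3 adult arrays, the immediate early genes sum higher in all 3 fetal arrays, and the leukocyte, endothelial and heat shock sums overlap. The leukocyte and endothelial sums consist mostly of the signal of 1 probe each, Csf1r and Kdr, and without it both are higher in all 3 adult arrays.

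Genes that respond to handling were read for the same reason. Of 9 immediate early genes 6 (66.7%, against 15.8% of all genes) were called by Benjamini-Hochberg as higher in fetal cells, among them Fosb (2.36, limma, Holm-adjusted p = 0.00252, and 0.0563 and 0.0537 without fetal replicate 1 and 2). Their sum was 203000, 242979 and 220268 in fetal cells and 79176, 77560 and 91084 in adult basal cells. None of the 6 heat shock chaperone genes tested was called by either rule at 2-fold, although limma gave 5 an unadjusted p below 0.05. Their sum was 417018, 509726 and 472460 against 465537, 467971 and 384960. The share of these differences that goes with the time in the enzymes cannot be told apart from that of the populations.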

How the data were processed

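Total RNA of 3 fetal and 3 adult basal replicates was hybridised to Agilent SurePrint G3 Mouse arrays in 1 colour. Per the labels a low-input kit was used for labelling, and the methods name a whole-transcript variant of it. The authors' scanner software (per the submitters' processing notes Agilent Feature Extraction, version 11.0.1.1) gave the intensity values, which are background-subtracted green processed signals, and the authors deposited the spot and local background medians and flags beside them. The authors also deposited log2 values that were quantile normalized per the methods, and these served as an alternative. Depth has no meaning for arrays, and the number of arrays limits the precision.

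From the processed intensity, control spots and outlier-flagged spots were left out, log2 was taken, and spots of a probe were averaged and quantile normalized over the 6 arrays. Of 55681 probes, 27235 (48.9%) were matched by accession to a RefSeq gene of GRCm38.p6. Because the design annotation follows another build, no probe coordinates are given, and promoter coordinates are those of RefSeq on GRCm38.p6. Probes in the lowest class of a k-means split (k = 3) in both groups were dropped (log2 below 5.95), which left 20448. Groups were compared with limma 3.58.1 in R 4.3.3 on all 6 arrays, with Holm and Benjamini-Hochberg adjustment over all tested probes and a 2-fold limit. A gene stands by its main probe, the one with the highest mean signal. Otherwise signals of different probes are set beside each other only to find the brightest gene of a list and to sum a list. Probes of the same gene differed in level, so a brightest gene or a share of a sum says nothing about amounts of RNA. With 3 arrays against 3 an exact permutation test cannot go below p = 0.1, so none is given.

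The fit was tested on simulated data (20440 probes, fetal against adult basal), in which 200 probes were changed. Each probe had its mean signal on these arrays, but the spreads were shuffled over the probes and were the same in both groups. With Holm the fit recovered 57% of changes of 2 log2 units and 78% of changes of 3, and with Benjamini-Hochberg 91% and 94%. These shares hold for that setting and are not the recovery in the measured data, where spread was not shuffled and far more probes were called. Unchanged probes were called 0 times with Holm and 7 times with Benjamini-Hochberg. Alternatives covered normalization, background correction, filters, offset, variance model, blocks, probe summary and each array left out. Normexp was run on the spot medians and the local background medians, because spot means are not used here.

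The 10 genes, the other lists and the tests were chosen with earlier results of these data known. Named were all 10 genes and the Holm calls of each pathway list (up to 5 each way). In a pathway list without a Holm call, the 2 largest differences among genes well above background on all 6 arrays were named. Of the marker lists, the sort antigens, the brightest marker of each list and the called markers were named. Of the genes that respond to handling, only the Holm call was named. Other names are said to be chosen after their values were seen. 1 marker gene is not reported here.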

Additional observations from a re-analysis of the deposited data

How the results depend on the processing

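Across 17 alternatives the 10 genes kept their direction in all 170 values, and 23 values, of Nfe2l2, Gclm and Gpx2, lost their Holm call. Hmox1 and Gclc kept theirs in all 17. The Benjamini-Hochberg calls of the 8 genes were the same genes under every alternative, with Keap1 added without fetal replicate 3 or adult basal replicate 2. The Holm count of the 10 genes was 2 without the low-signal filter, 3 with the replicate block and 2 with the slide block, and 2 to 4 with each array left out. Holm called 1182 probes without the filter and 1302 with the replicate block, and 948 to 1949 with each array left out, lowest without fetal replicate 1. Of the pathway genes Holm called 13 without the filter, 36 with a trend and robust variance, 11 with the replicate block, and 8 to 19 with each array left out. The cause was not tested.

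Same-numbered replicates were not paired by the data (correlations of -0.03, 0.09 and 0.05), so the replicate block rests on a shared number alone. Of 595 values of 35 other pathway genes named (without Bach2, Maff, Mafk and Nfe2l1), 94 lost a Holm call, 4 gained one and 4 changed sign, all near 0. These were Cul3 (-0.0065 without adult basal replicate 2, in a range of up to 0.13 with each array left out) and Gss (-0.10 with normexp, and -0.060 to 0.059 with each array left out). Of 551 values of 33 marker and stress genes, 31 lost a Holm call (Krt5, Foxa1, Epcam, Dcn, Krt10 and Fosb among the genes), 9 gained one and 8 changed sign. These were Itga6 (-0.0093 with normexp, and -0.083 to 0.13 with each array left out), Csf1r (-0.18 to 0.042) and Kdr (-0.14 to 0.029). At low signal the size depended on background handling, as for Ggt1 (-3.67 as reported, -2.42 with normexp). Where probes disagreed it depended on their averaging, as for Nox4 (-1.80) and Ephx1 (-1.56).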
